A study of Homo sapiens with 12 samples.

Results

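The genes described here encode the DNA replication machinery, 49 genes chosen by function from the symbols in the count tables. They cover origin recognition, licensing, the replicative helicase and its activators, the polymerases, the sliding clamp and its loader, single-strand binding, Okazaki fragment maturation, deoxynucleotide supply and chromatin assembly. The tables listed 26364 genes, of which 12671 had enough reads to be tested. All 49 replication genes were listed and all 49 passed the filter on low counts. Bulk RNA came from HL-60, a leukemia line of human promyelocytes whose cells turn granulocytic when all-trans retinoic acid (ATRA) binds its nuclear receptors. The 4 groups hold 3 replicates each: HL-60 kept untreated (0 h), and HL-60 exposed to 1 µM ATRA for 4 h, for 2 d or for 4 d. No untreated library at the later times was used here, so the effects of ATRA and of time in culture cannot be told apart. The labels do not say that the replicates were separate cultures, and p-values therefore measure only the spread between these samples.

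Each origin is bound by the origin recognition complex, on which CDC6 and CDT1 load the ring-shaped MCM helicase in G1 phase. In S phase the CDC7-DBF4 kinase and cyclin-dependent kinases bring in CDC45 and the GINS complex, which turn the ring into an active helicase. Polymerase alpha and primase then lay down primers that polymerases delta and epsilon extend on the PCNA clamp. Myeloid precursors divide while immature and stop dividing as they become neutrophils, and many replication genes are known targets of the E2F transcription factors in cycling cells.

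Promoter sequence was one feature that the choice of genes did not use. RefSeq promoter windows (GRCh38.p14, from 250 bases before to 50 bases after the start, the first listed window where a gene has several) were given for 43 of the 49 genes. An E2F word was TTTCCCGC, TTTGGCGC, TTTCGCGC or TTTGCCGC on either strand, where neighbouring words may overlap each other. Such a word stood in 18 of the 43 windows (41.9%), against 5.48% of 9350 windows of tested genes and 3.33% of all 27303 windows. CCAAT, on either strand, stood in 55.8% of the replication windows and 36.6% of those of tested genes. TTTGAA and TTTAAA were each counted as a cell cycle genes homology region. Either word stood in 9.3% of the replication windows and 16% of those of tested genes. A match describes letters in a window and is neither a binding site nor a cause. The 250 bases before the start of 5 genes, chosen after their values were seen, show the range: MCM6, the MCM gene with the largest fall at 4 d, holds 4 overlapping words. GINS2 and CDT1, each the most changed gene of its role, hold 1 word each. POLD2, the gene with the largest fall of all, and ORC2, which did not pass the test at any time, hold none. Capitals mark the E2F words, and each strand is the one of the gene. MCM6 lies at chr2:135876444-135876693 (minus strand), GINS2 at chr16:85688955-85689204 (minus strand), CDT1 at chr16:88803539-88803788 (plus strand), POLD2 at chr7:44123549-44123798 (minus strand) and ORC2 at chr2:200963661-200963910 (minus strand).
MCM6: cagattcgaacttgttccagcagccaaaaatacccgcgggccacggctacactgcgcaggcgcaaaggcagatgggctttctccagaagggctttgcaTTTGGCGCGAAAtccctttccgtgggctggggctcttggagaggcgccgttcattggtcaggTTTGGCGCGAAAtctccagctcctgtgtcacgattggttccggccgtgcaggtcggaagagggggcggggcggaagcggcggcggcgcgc
GINS2: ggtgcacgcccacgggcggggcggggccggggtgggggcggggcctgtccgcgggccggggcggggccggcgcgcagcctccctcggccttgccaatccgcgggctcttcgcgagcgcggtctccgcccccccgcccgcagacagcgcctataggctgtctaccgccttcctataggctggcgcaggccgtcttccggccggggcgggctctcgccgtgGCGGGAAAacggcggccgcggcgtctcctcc
CDT1: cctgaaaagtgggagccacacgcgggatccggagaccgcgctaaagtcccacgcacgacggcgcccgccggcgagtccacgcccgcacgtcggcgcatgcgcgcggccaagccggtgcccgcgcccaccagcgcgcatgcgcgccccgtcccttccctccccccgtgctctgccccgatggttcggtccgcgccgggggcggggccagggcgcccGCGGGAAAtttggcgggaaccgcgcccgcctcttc
POLD2: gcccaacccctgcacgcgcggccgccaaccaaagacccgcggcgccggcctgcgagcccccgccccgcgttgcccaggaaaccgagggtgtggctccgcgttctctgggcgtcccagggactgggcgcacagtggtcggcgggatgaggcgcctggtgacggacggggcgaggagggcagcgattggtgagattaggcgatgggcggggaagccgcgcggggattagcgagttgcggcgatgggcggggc
ORC2: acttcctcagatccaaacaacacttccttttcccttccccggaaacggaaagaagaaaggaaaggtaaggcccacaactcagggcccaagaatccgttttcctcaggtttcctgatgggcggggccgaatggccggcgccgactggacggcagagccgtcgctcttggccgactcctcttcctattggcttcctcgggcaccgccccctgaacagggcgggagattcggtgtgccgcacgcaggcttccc

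Reads in genes ran from 7866757 to 13658177 per library, and the lowest count of a replication gene in any library was 34 reads. The 8 myeloid and promyelocyte markers, MPO contributing most, summed to 10187 to 10879 CPM (gene reads scaled to the library's size) at 4 d and 32088 to 45554 CPM at 0 h. Of the 8, 6 fell and CD33 rose at 4 d against 0 h, and SPI1 did not pass the test. Erythroid markers summed to at most 3.91 CPM in any library. Some libraries stood apart from their mates. The 4 h replicate 1 had reads in 22265 genes, against 15198 to 15798 genes in the other 11 libraries. Over well-expressed genes, Spearman's rho of a library's log2 difference from its mates with GC content was 0.67 for 0 h replicate 2, 0.82 for 4 h replicate 3 and 0.58 for 4 d replicate 1, and -0.82 to 0.13 for the other 9 libraries. Each value is relative to the mates, and the mates of these 3 libraries had -0.82 to -0.42, so rho alone does not show which library differs. Replicate pairs that include 1 of the 3 had a chi-square per degree of freedom, against counting error, of 30.8 to 98.0. The other pairs had 3.47 to 18.7. Among the replication genes, 0 h replicate 2 was below both mates in 35 genes and above both in 9, from -1.30 on the log2 scale for TYMS to 1.16 for POLD1. Spearman's rho of this difference with GC content (39.1% to 65.0%) was 0.49 over the 49 genes, which share the same 3 libraries. Counts of genes called, and some of the single genes that rest on these libraries, are given with and without them.

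**Figure D1:**
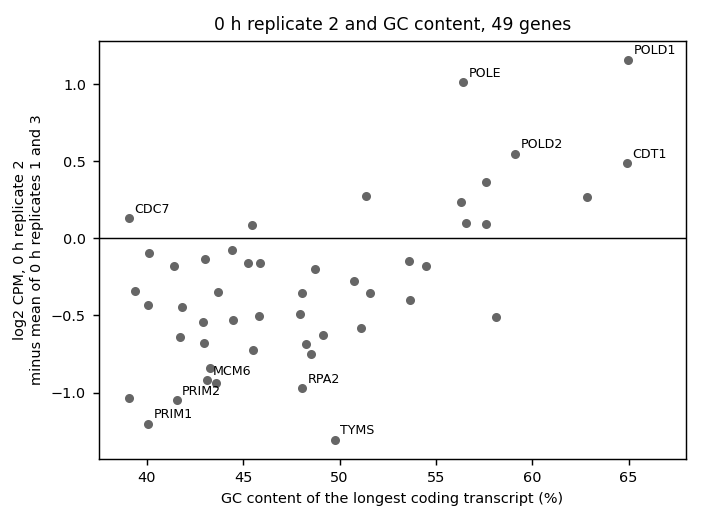
Each point is 1 of the 49 replication genes. The x axis is the GC content (%) of the longest coding transcript and the y axis is log2 CPM of 0 h replicate 2 minus the mean of 0 h replicates 1 and 3. Most GC-poor genes lie below 0, and POLD1 and POLE, both GC-rich, lie highest, at 1.16 and 1.01.

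Nearly all replication genes fell between 2 d and 4 d of ATRA. Against 0 h, none was called at 4 h and 8 of 49 at 2 d (background 18.7% called lower). Levels are CPM scaled by TMM factors, and log2 fold changes are given ± SE. The summed share of the replication genes in gene reads was 0.682 ± 0.0439% in untreated cells and 0.707 ± 0.00919% after 4 h of ATRA. It was 0.594 ± 0.0144% after 2 d and 0.246 ± 0.0112% after 4 d (SD, n = 3 each). The widest 95% Wilson interval of a library spanned 0.0106 percentage points and covers counting error only. In bulk RNA, fewer cells in S phase and less of each transcript per cell cannot be told apart. At 4 d against 0 h, 47 of the 49 genes fell by the quasi-likelihood test of edgeR, with p-values adjusted by Benjamini-Hochberg over all 12671 genes, and none rose. The same call was made lower for 29.7% of all genes tested. Of the 47, 40 fell at least 2-fold, as 17.6% of all genes did. The median log2 fold change was -1.41 for the replication genes and 0.00 for all genes tested. All 4 d libraries lay below all 0 h libraries for 44 of the 49 genes (background 29.9%), and the other 5 were ORC2, RPA2, PRIM2, POLE and TYMS.

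**Figure D2:**
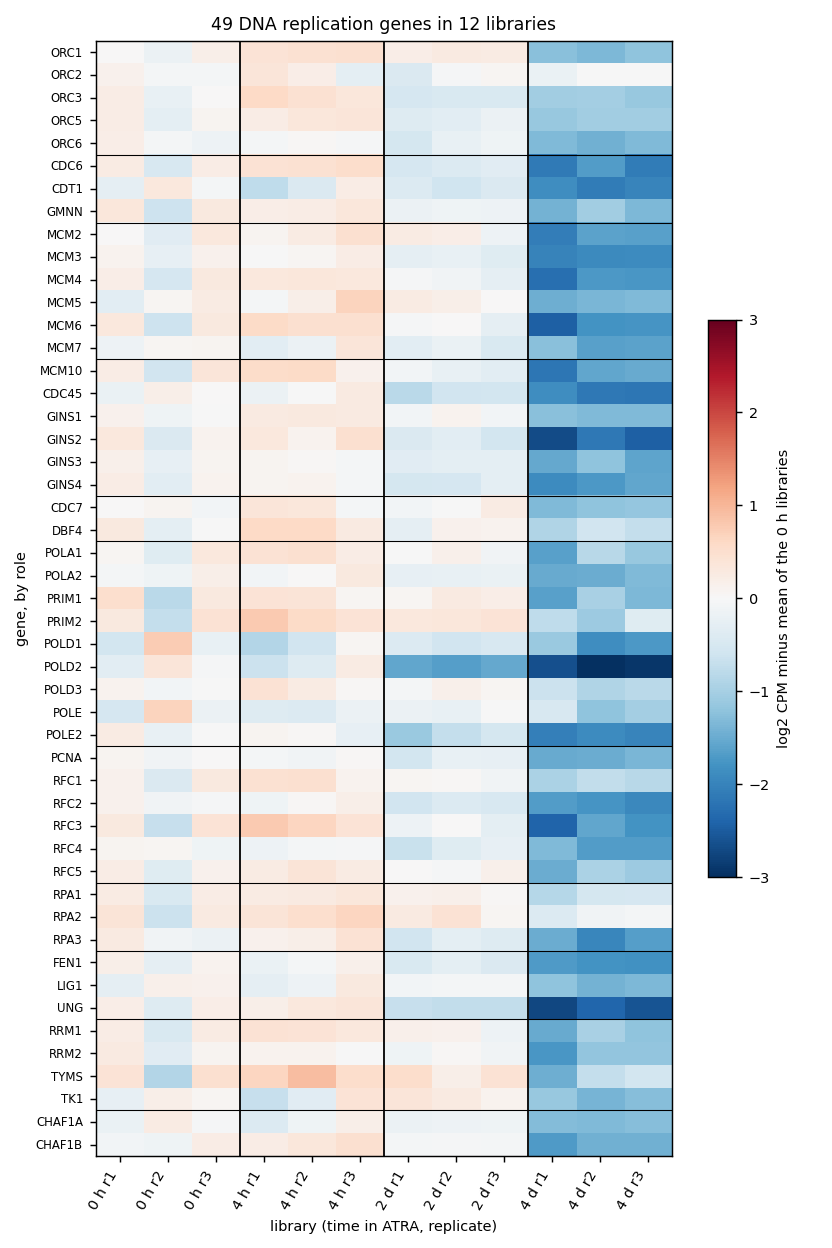
Rows are the 49 replication genes in blocks by role, columns the 12 libraries from 0 h to 4 d, and colour is log2 CPM minus the mean of the 0 h libraries (blue lower, red higher). The 3 columns of 4 d are blue in nearly every row, with ORC2 and RPA2 palest, and 0 h replicate 2 differs from its mates in many rows.

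Origin recognition fell in part. ORC1, ORC3, ORC5 and ORC6 fell at 4 d against 0 h and ORC2 did not pass the test. ORC6, the smallest subunit, with the highest level and the largest change, had 72.4, 60.5 and 56.3 CPM at 0 h, 60.5, 64.1 and 61.5 CPM at 4 h, 43.2, 54.0 and 57.3 CPM at 2 d and 24.9, 23.1 and 24.97 CPM at 4 d (log2 fold change at 4 d against 0 h -1.37 ± 0.15, adjusted p = 5.04e-06). The 4 d libraries lay below all others, and those at 2 d overlapped those at 0 h. ORC1, the subunit whose protein is degraded in S phase, had 19.5, 18.2 and 20.1 CPM at 4 d, against 53.6, 55.9 and 55.3 CPM at 2 d (log2 -1.51 ± 0.13, adjusted p = 1.04e-05). ORC3 averaged 9.92 ± 0.381 CPM at 4 d and 20.9 ± 3.26 CPM at 0 h, and ORC5 9.05 ± 0.288 CPM at 4 d and 19.3 ± 3.43 CPM at 0 h (SD, n = 3 each). ORC2, a core subunit, had 30.0, 34.6 and 34.4 CPM at 4 d and 37.7, 33.2 and 33.4 CPM at 0 h. These values overlap, and the log2 difference was -0.08 ± 0.18, adjusted p = 0.737. Over the study ORC2 had no call in any comparison (F-test over all times, adjusted p = 0.633). The log2 ratio of ORC1 to ORC2 was -0.771 ± 0.151 at 4 d and 0.417 ± 0.20 at 0 h. That difference of -1.19 did not overlap, with an exact two-sided permutation p of 0.1, the smallest that 3 against 3 libraries allow, and an adjusted p of 0.2 over 3 ratios.

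The licensing factors fell together, 3 of 3 at 4 d. CDT1, which brings MCM rings to origins, had 174, 264 and 204 CPM at 0 h, 125, 156 and 247 CPM at 4 h, 159, 139 and 156 CPM at 2 d and 57.5, 49.1 and 53.6 CPM at 4 d (log2 fold change at 4 d against 0 h -2.0 ± 0.24, adjusted p = 1.04e-05). Its 4 d libraries were the 3 lowest of the 12. CDC6, the ATPase that loads the helicase with CDT1, had 11.0, 15.1 and 11.2 CPM at 4 d, against 34.1, 36.0 and 37.9 CPM at 2 d (log2 -1.53 ± 0.20, adjusted p = 0.000152). GMNN, whose protein geminin binds and blocks CDT1, had 17.6, 23.0 and 18.4 CPM at 4 d, against 41.4, 42.9 and 42.4 CPM at 2 d (log2 -1.10 ± 0.22, adjusted p = 0.00253). The loader genes and their inhibitor were thus all lower, with no overlap between 4 d and 2 d. The log2 ratio of CDT1 to GMNN averaged 1.45 ± 0.315 at 4 d and 2.16 ± 0.837 at 0 h, a difference of -0.72 with overlapping libraries (exact two-sided permutation p = 0.2, adjusted p = 0.2). Without 0 h replicate 2, the library with the ratio of 3.12, the difference was -0.24.

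All 6 genes of the MCM helicase fell at 4 d, each at least 2-fold. MCM7, the subunit with the highest level, had 729, 849 and 867 CPM at 0 h, 652, 714 and 1052 CPM at 4 h, 649, 705 and 588 CPM at 2 d and 339, 262 and 268 CPM at 4 d (log2 fold change at 4 d against 0 h -1.49 ± 0.20, adjusted p = 2.9e-05). MCM6, the subunit with the largest change, had 221, 117 and 220.2 CPM at 0 h, 267, 247 and 251 CPM at 4 h, 175, 180.2 and 148 CPM at 2 d and 32.8, 51.6 and 52.4 CPM at 4 d (-2.03 ± 0.25, adjusted p = 1.41e-05). In both genes every 4 d library lay below the other 9, and the 0 h replicate 2 of MCM6 was lower than the 2 d libraries. The remaining subunits of the ring were also lowest at 4 d. MCM2 had 97.4, 134 and 132 CPM at 4 d, against 484, 466 and 366 CPM at 2 d. MCM3 had 93.6, 99.1 and 101 CPM at 4 d, against 312, 318 and 288 CPM at 2 d. MCM4 had 69.9, 102 and 99.981 CPM at 4 d, against 330.4, 314 and 279.8 CPM at 2 d. MCM4 is part of the catalytic core with MCM6 and MCM7, and its 4 d libraries lay well below those at 2 d. MCM5, which closes the ring against MCM2, had 148, 156 and 162 CPM at 4 d, against 479, 457 and 410.0 CPM at 2 d. The log2 fold changes of the 6 genes at 4 d against 2 d ran from -1.88 (MCM6) to -1.16 (MCM7). Although the ring holds its subunits in equal number, transcript levels were unequal. Per kilobase of the longest coding transcript, MCM7 stood at 94.0 ± 13.9 CPM at 4 d and 264 ± 24.3 CPM at 0 h, and MCM6 at 12.2 ± 2.97 CPM at 4 d and 49.8 ± 16.1 CPM at 0 h (SD, n = 3). At 0 h MCM2, MCM3 and MCM5 lay between 114 and 117 CPM per kilobase, closer to each other than their spread. Which transcripts the cells used was not measured.

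Helicase activators fell in 6 of 6 cases at 4 d. CDC45, a subunit of the active helicase with the highest level among these genes, had 119, 154 and 137 CPM at 0 h, 119.8, 134 and 165 CPM at 4 h, 77.9, 91.3 and 92.6 CPM at 2 d and 37.3, 30.8 and 30.1 CPM at 4 d (log2 fold change at 4 d against 0 h -2.06 ± 0.17, adjusted p = 5.05e-07). Its 2 d libraries already lay below those at 0 h. GINS2, of the GINS ring that ties CDC45 to the MCM complex, had 28.3, 16.9 and 24.3 CPM at 0 h, 28.3, 24.2 and 31.8 CPM at 4 h, 16.7, 18.2 and 15.4 CPM at 2 d and 3.53, 5.15 and 4.18 CPM at 4 d (-2.43 ± 0.22, adjusted p = 9.79e-07). GINS2 rested on few reads at 4 d, 34 in the lowest library, and its 2 d libraries overlapped those at 0 h. The other GINS genes changed by -1.30 (GINS1), -1.44 (GINS3) and -1.73 (GINS4) on the log2 scale at 4 d against 0 h, and differences between the genes were not tested. GINS1 had 21.2, 20.2 and 20.1 CPM at 4 d, against 47.1, 53.9 and 47.2 CPM at 2 d. GINS3 had 6.85, 8.62 and 6.61 CPM at 4 d, against 15.6, 16.3 and 16.1 CPM at 2 d. GINS4 had 9.24, 10.4 and 11.7 CPM at 4 d, against 23.9, 24.0 and 28.0 CPM at 2 d. Every GINS gene was lower in every 4 d library than in any 2 d library. MCM10, which helps the new forks start, had 3.53, 5.35 and 5.48 CPM at 4 d, against 14.9, 13.5 and 12.7 CPM at 2 d, and was the lowest of these genes at 0 h per kilobase.

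The DBF4-dependent kinase fell in both of its subunits. CDC7, the catalytic subunit that phosphorylates the MCM ring, had 32.2, 34.1 and 30.1 CPM at 0 h, 41.1, 40.3 and 30.7 CPM at 4 h, 30.3, 32.0 and 37.8 CPM at 2 d and 12.9, 14.0 and 14.4 CPM at 4 d (log2 fold change at 4 d against 0 h -1.22 ± 0.16, adjusted p = 1.98e-05). The 4 d libraries lay below all others and the earlier times overlapped. DBF4, the activating subunit, averaged 23.9 ± 4.90 CPM at 0 h, 23.6 ± 3.45 CPM at 2 d and 14.3 ± 1.60 CPM at 4 d (SD, n = 3). Its log2 fold change at 4 d against 2 d was -0.72 ± 0.19, adjusted p = 0.0127, and 0.0567 without 2 d replicate 2, so that this call depends on that library.

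Polymerases and primase fell in 9 of 9 genes at 4 d against 0 h, 6 of them at least 2-fold. POLD2, the second subunit of polymerase delta, had 396, 636 and 479 CPM at 0 h, 317, 380.3 and 583 CPM at 4 h, 167, 158 and 171 CPM at 2 d and 79.3, 56.9 and 65.9 CPM at 4 d (log2 fold change at 4 d against 0 h -2.90 ± 0.25, adjusted p = 6.4e-07). POLD2 was already called at least 2-fold lower at 2 d, with no overlap between 2 d and 0 h. POLD1, the catalytic subunit of polymerase delta and the highest of this role, had 405, 1007 and 503 CPM at 0 h, 318, 397 and 609.8 CPM at 4 h, 446, 399 and 426 CPM at 2 d and 271, 163 and 178 CPM at 4 d (-1.65 ± 0.33, adjusted p = 0.000864). The 0 h replicate 2 lay above both mates, and without it the log2 fold change was -1.15. POLD3, an accessory subunit, averaged 26.7 ± 2.46 CPM at 4 d and 45.7 ± 3.05 CPM at 0 h (SD, n = 3 each, log2 -0.78 ± 0.15, adjusted p = 0.000466). POLE, the catalytic subunit of polymerase epsilon on the leading strand, had 251, 150.4 and 171 CPM at 4 d and 245, 556 and 311 CPM at 0 h (log2 -0.96 ± 0.27, adjusted p = 0.00833). The 4 d replicate 1 of POLE lay above the 0 h replicate 1, and without 0 h replicate 2 the log2 fold change was -0.54, adjusted p = 0.0359. At 4 d against 2 d POLE missed the threshold (log2 -0.73 ± 0.27, adjusted p = 0.0604). POLE2, the second subunit of polymerase epsilon, had 5.501, 6.24 and 5.83 CPM at 4 d, against 10.6, 14.1 and 16.0 CPM at 2 d (log2 -1.20 ± 0.20, adjusted p = 0.000789). These 2 d values of POLE2 lay below those at 0 h too.

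Polymerase alpha and primase make the primers. POLA1, the catalytic subunit, had 10.6, 18.3 and 14.8 CPM at 4 d, against 32.3, 36.4 and 30.4 CPM at 2 d. POLA2, its regulatory subunit, had 26.8, 27.1 and 30.3 CPM at 4 d, against 63.7, 65.1 and 66.2 CPM at 2 d. Both genes showed no overlap between these times. PRIM1, the catalytic primase, had 9.86, 15.5 and 12.01 CPM at 4 d, against 31.7, 37.0 and 35.2 CPM at 2 d. PRIM2, the large primase subunit, had 6.23, 4.95 and 8.18 CPM at 4 d, against 13.2, 13.5 and 14.0 CPM at 2 d. PRIM2 overlapped between 4 d and 0 h, since the 0 h replicate 2 stood at 6.45 CPM. Its log2 fold change at 4 d against 0 h was -0.79 ± 0.27, adjusted p = 0.0229. PRIM2 missed the threshold when 0 h replicate 1 or 3 or 4 d replicate 1 or 2 was left out (adjusted p 0.0522 to 0.106). It also missed it with library totals alone, in the fit to 6 libraries and with an offset for GC content and length of the longest transcript (adjusted p 0.06 to 0.0769). PRIM2 was called in 10 of 17 alternatives, and fell without 0 h replicate 2 (log2 -1.07, adjusted p = 0.00081).

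**Figure D3:**
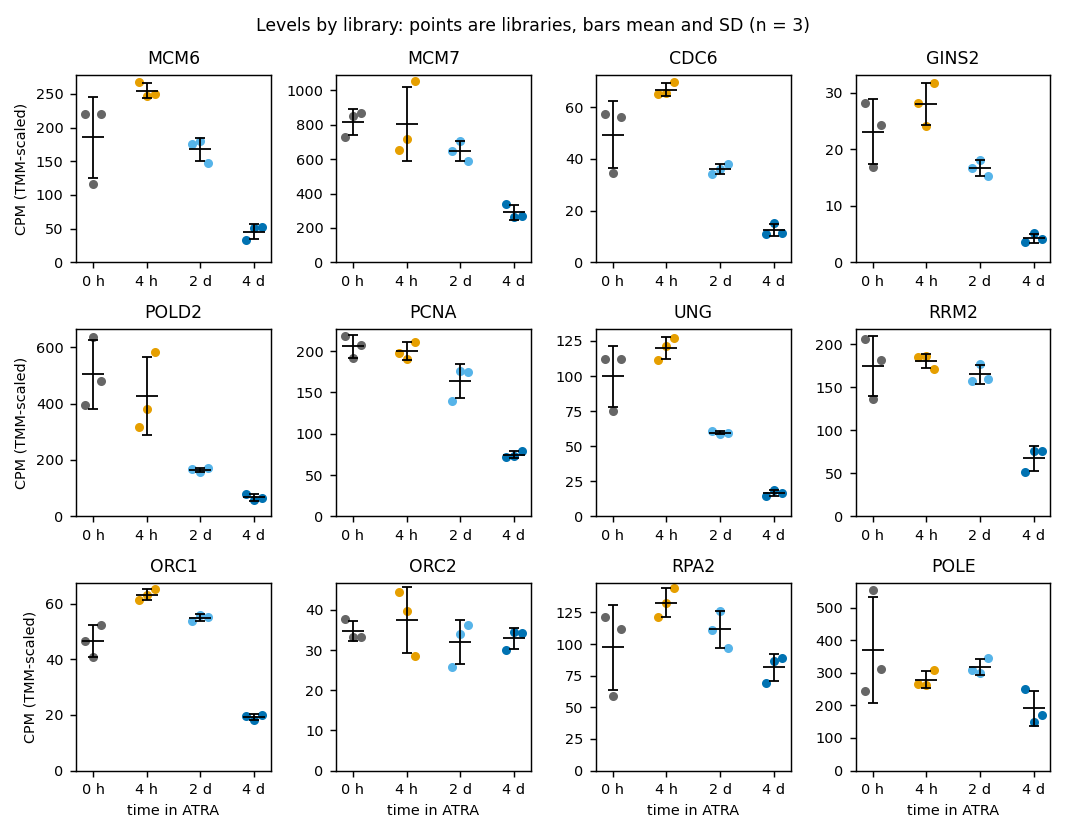
Points are libraries and bars the mean with SD (n = 3), for 12 replication genes. The x axis is time in ATRA and the y axis CPM from 0. MCM6, GINS2, UNG and RRM2 drop at 4 d, POLD2 already at 2 d (158 to 171 CPM, against 396 to 636 CPM at 0 h), and ORC2 stays between 25.8 and 44.5 CPM.

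The clamp and its loader fell in 6 of 6 genes. PCNA, the sliding clamp that tethers the polymerases, had 218, 191 and 208 CPM at 0 h, 198, 190.2 and 211 CPM at 4 h, 139, 176 and 174 CPM at 2 d and 71.5, 73.2 and 79.0 CPM at 4 d (log2 fold change at 4 d against 0 h -1.46 ± 0.15, adjusted p = 2.27e-06). Its 4 d libraries lay below all others, and 2 d lay below 0 h. RFC3, a small subunit of the clamp loader and the most changed of this role, had 65.7, 33.3 and 71.1 CPM at 0 h, 93.1, 83.9 and 71.5 CPM at 4 h, 48.3, 54.5 and 43.8 CPM at 2 d and 10.2, 18.4 and 15.6 CPM at 4 d (-1.94 ± 0.28, adjusted p = 4.84e-05). The 0 h replicate 2 of RFC3 lay below the 2 d libraries. The other loader subunits open the clamp with it. RFC2 had 23.5, 21.9 and 19.7 CPM at 4 d, against 50.4, 56.1 and 53.5 CPM at 2 d. RFC4 had 30.1, 23.3 and 23.5 CPM at 4 d, against 47.5, 58.0 and 63.3 CPM at 2 d. RFC5 had 15.6, 22.7 and 20.4 CPM at 4 d, against 44.0, 42.5 and 48.1 CPM at 2 d. None of these 3 genes overlapped between the times. RFC1, the large subunit, fell less than 2-fold (log2 -0.84 ± 0.18, adjusted p = 0.00518 at 4 d against 2 d).

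Of the single-strand binding protein RPA, 2 of 3 subunits fell at 4 d against 0 h. RPA3, its smallest subunit, had 49.2, 37.9 and 36.4 CPM at 0 h, 44.5, 45.9 and 54.7 CPM at 4 h, 27.5, 33.4 and 31.4 CPM at 2 d and 14.6, 10.5 and 13.1 CPM at 4 d (log2 fold change at 4 d against 0 h -1.69 ± 0.18, adjusted p = 3.26e-06). RPA2, the subunit with the highest level, had 121, 59.2 and 112 CPM at 0 h, 121, 132 and 144 CPM at 4 h, 112, 127 and 96.9 CPM at 2 d and 69.4, 86.8 and 89.1 CPM at 4 d (-0.25 ± 0.23, adjusted p = 0.364). The 0 h replicate 2 of RPA2 lay below all 4 d libraries. Without that library RPA2 fell at 4 d (log2 -0.51, adjusted p = 0.0141). RPA1, the large subunit with the main DNA contacts, averaged 48.7 ± 6.08 CPM at 4 d and 76.8 ± 19.3 CPM at 0 h (SD, n = 3 each, log2 -0.66 ± 0.18, adjusted p = 0.00701). The RPA2 level per kilobase, 46.7 ± 6.13 CPM at 4 d, stood above that of RPA1 (11.2 ± 1.40 CPM) and RPA3 (6.30 ± 1.03 CPM) by more than their spread (SD, n = 3).

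Okazaki fragment maturation and uracil removal fell in 3 of 3 genes. LIG1, the ligase that joins Okazaki fragments and the highest of this role, had 167, 225 and 219 CPM at 0 h, 167, 183 and 247 CPM at 4 h, 192, 194 and 193 CPM at 2 d and 88.2, 75.9 and 79.7 CPM at 4 d (log2 fold change at 4 d against 0 h -1.33 ± 0.18, adjusted p = 3.19e-05). UNG, the glycosylase that removes uracil from new DNA, had 112, 74.9 and 112 CPM at 0 h, 111, 122 and 127 CPM at 4 h, 60.9, 58.6 and 59.2 CPM at 2 d and 14.8, 18.8 and 16.4 CPM at 4 d (-2.58 ± 0.18, adjusted p = 9.09e-08). UNG fell in steps, with no overlap between 4 d and 2 d or between 2 d and 0 h, whereas LIG1 overlapped between 2 d and 0 h. FEN1, the flap nuclease that trims fragments, had 40.9, 38.2 and 37.2 CPM at 4 d, against 96.4, 108 and 97.4 CPM at 2 d (log2 -1.38 ± 0.16, adjusted p = 6.67e-05).

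Deoxynucleotide supply fell in 4 of 4 genes. TK1, the thymidine kinase of S phase and the highest of this role, had 145, 195 and 180.1 CPM at 0 h, 106, 136 and 230.1 CPM at 4 h, 220.5, 208 and 185 CPM at 2 d and 77.5, 65.7 and 71.1 CPM at 4 d (log2 fold change at 4 d against 0 h -1.28 ± 0.24, adjusted p = 0.000521). RRM2, the small subunit of ribonucleotide reductase, had 206, 137 and 181 CPM at 0 h, 185, 186 and 171 CPM at 4 h, 158, 177 and 159.6 CPM at 2 d and 51.1, 75.7 and 75.7 CPM at 4 d (-1.37 ± 0.19, adjusted p = 4.18e-05). Both genes were at their lowest in the 3 libraries of 4 d. RRM1, the large subunit of the same enzyme, had 42.3, 61.6 and 52.4 CPM at 4 d, against 136, 134 and 109 CPM at 2 d. The log2 ratio of RRM2 to RRM1 was 0.366 ± 0.144 at 4 d and 0.501 ± 0.144 at 0 h, a difference of -0.13 that lay within the spread (exact two-sided permutation p = 0.2, adjusted p = 0.2). TYMS, the thymidylate synthase, had 6.23, 10.4 and 11.7 CPM at 4 d, against 24.5, 19.3 and 22.9 CPM at 2 d. At 4 d against 0 h TYMS overlapped (log2 -0.97 ± 0.31, adjusted p = 0.017). TYMS missed the threshold when 0 h replicate 1 or 3 or 4 d replicate 1 was left out (adjusted p 0.0617 to 0.0758). It also missed it in the fit to 6 libraries (adjusted p = 0.0617). With an offset for GC content and length of the longest transcript, the log2 fold change was -0.48, adjusted p = 0.17. TYMS was called in 12 of 17 alternatives. The 0 h replicate 2 of TYMS stood at 9.27 CPM.

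Chromatin assembly factor 1 fell in both subunits measured. CHAF1A, its large subunit, had 175, 239 and 197 CPM at 0 h, 152, 184 and 227 CPM at 4 h, 180.3, 183 and 186 CPM at 2 d and 82.5, 81.1 and 82.9 CPM at 4 d (log2 fold change at 4 d against 0 h -1.31 ± 0.17, adjusted p = 2.52e-05). CHAF1B, the middle subunit, had 26.3, 25.3 and 32.2 CPM at 0 h, 32.3, 34.9 and 38.4 CPM at 4 h, 26.5, 27.2 and 26.6 CPM at 2 d and 8.51, 10.2 and 10.3 CPM at 4 d (-1.53 ± 0.15, adjusted p = 2.12e-06). The 2 d libraries of CHAF1B lay within the range at 0 h, and the 4 d libraries of both genes lay below all others.

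Between 2 d and 4 d the genes fell almost as a whole, 46 of 49 by the same test (background 13.5% called lower), and none rose. Of these, 40 fell at least 2-fold (background 4.86%), and the median log2 fold change was -1.27 for the replication genes and 0.00 for all genes tested. The genes that missed the threshold were ORC2, POLE and RPA2. All 4 d libraries lay below all 2 d libraries for 48 of the 49 (background 24.7%), ORC2 being the exception. POLD1 missed the threshold without 2 d replicate 1, 2 or 3 or without 4 d replicate 2 or 3 (adjusted p 0.067 to 0.109), and ORC3 without 4 d replicate 3 (adjusted p = 0.0549). These comparisons share libraries with those against 0 h.

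**Figure D4:**
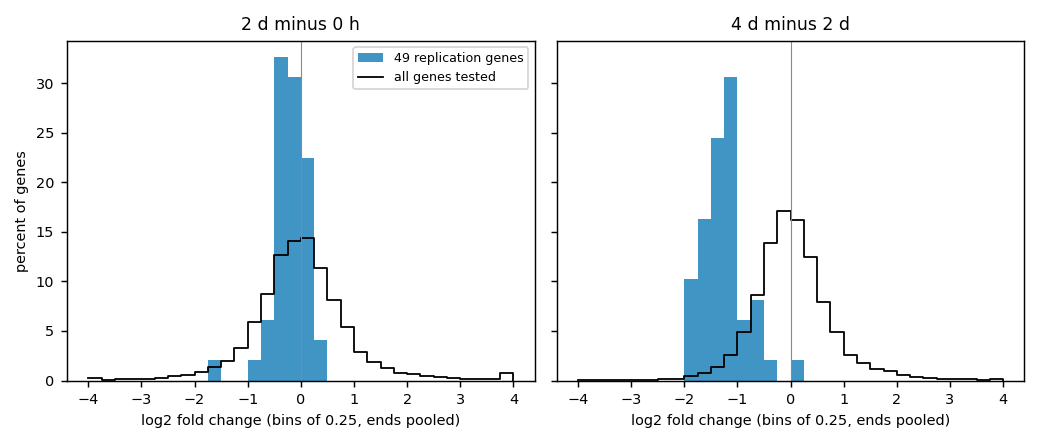
Blue bars are the 49 replication genes and the black line all genes tested, as a percent of genes in bins of 0.25 log2 fold change, with 2 d minus 0 h on the left and 4 d minus 2 d on the right. On the left the genes sit around their median of -0.21 with POLD2 alone at -1.61, and on the right around a median of -1.27, while all genes stay centred near 0.

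At 4 h nothing passed the test. The same edgeR test called 0 of 49 genes in either direction at 4 h against 0 h, where it called 6.23% of all genes. At an unadjusted p under 0.05 (background 25.3%) there were 6, all higher (ORC1, ORC3, CDC6, GINS1, DBF4 and CHAF1B). DESeq2 called 1 (ORC1, background 10.6%) and limma-voom none (background 5.32%). The median log2 difference was 0.23 for the replication genes and 0.00 for all genes tested. That of the replication genes was 0.09 without 0 h replicate 2 and 0.03 without the 3 libraries set apart by GC content. The 4 h libraries lay above all 0 h libraries for 14 genes (background 13%) and below them for none (background 12.5%). ORC1 had 61.4, 63.2 and 65.1 CPM at 4 h and 46.6, 40.8 and 52.4 CPM at 0 h, which did not overlap (log2 0.44 ± 0.13, adjusted p = 0.0613). ORC3 was called without 4 h replicate 3 (log2 0.53, adjusted p = 0.0483). With those 3 left out, ORC1, ORC3, CDC7, DBF4 and RFC3 rose and CDT1 and TK1 fell, between -0.42 and 0.44 on the log2 scale. These 7 are 14.3% of the replication genes, while 24.9% of all genes were called in the same fit.

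By 2 d a small set had fallen against 0 h. ORC3, CDC45, GINS4, POLD2, POLE2, RFC2, RFC4 and UNG were called lower and none higher, 8 of 49, a share no larger than the 18.7% of all genes that were called lower, with a median log2 fold change of -0.21 for the replication genes and -0.02 for all genes tested. POLD2 had 167, 158 and 171 CPM at 2 d and 396, 636 and 479 CPM at 0 h (log2 -1.61 ± 0.24, adjusted p = 0.000218), the gene called at least 2-fold lower (background 8.52%). POLE2 had 10.6, 14.1 and 16.0 CPM at 2 d and 27.2, 19.5 and 22.8 CPM at 0 h (log2 -0.78 ± 0.19, adjusted p = 0.00551). UNG had 60.9, 58.6 and 59.2 CPM at 2 d and 112, 74.9 and 112 CPM at 0 h (log2 -0.74 ± 0.17, adjusted p = 0.00402). These 3 genes showed no overlap between the times and were called in all 17 alternatives run for them. CDC45 fell by 0.65 on the log2 scale (adjusted p = 0.00884), and GINS4, with overlapping libraries, by 0.46 (adjusted p = 0.0437). The count rested on single libraries. Leaving out 0 h replicate 1 gave 4, 0 h replicate 2 gave 13 and 0 h replicate 3 gave 5. Leaving out 2 d replicate 1 gave 3 and 2 d replicate 2 gave 5. In that order, these were 8.16%, 26.5%, 10.2%, 6.12% and 10.2% of the replication genes, all lower. The same fits called 15.8%, 18.7%, 16.4%, 12.7% and 14.6% of all genes lower. The median log2 fold change was -0.29 without 0 h replicate 2 and -0.09 without 0 h replicate 3. Without the 3 libraries set apart by GC content the count was 26, with 25 lower and 1 higher. That is 53.1% of the replication genes, while 52.8% of all genes were called in the same fit and 27.3% called lower.

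**Figure D5:**
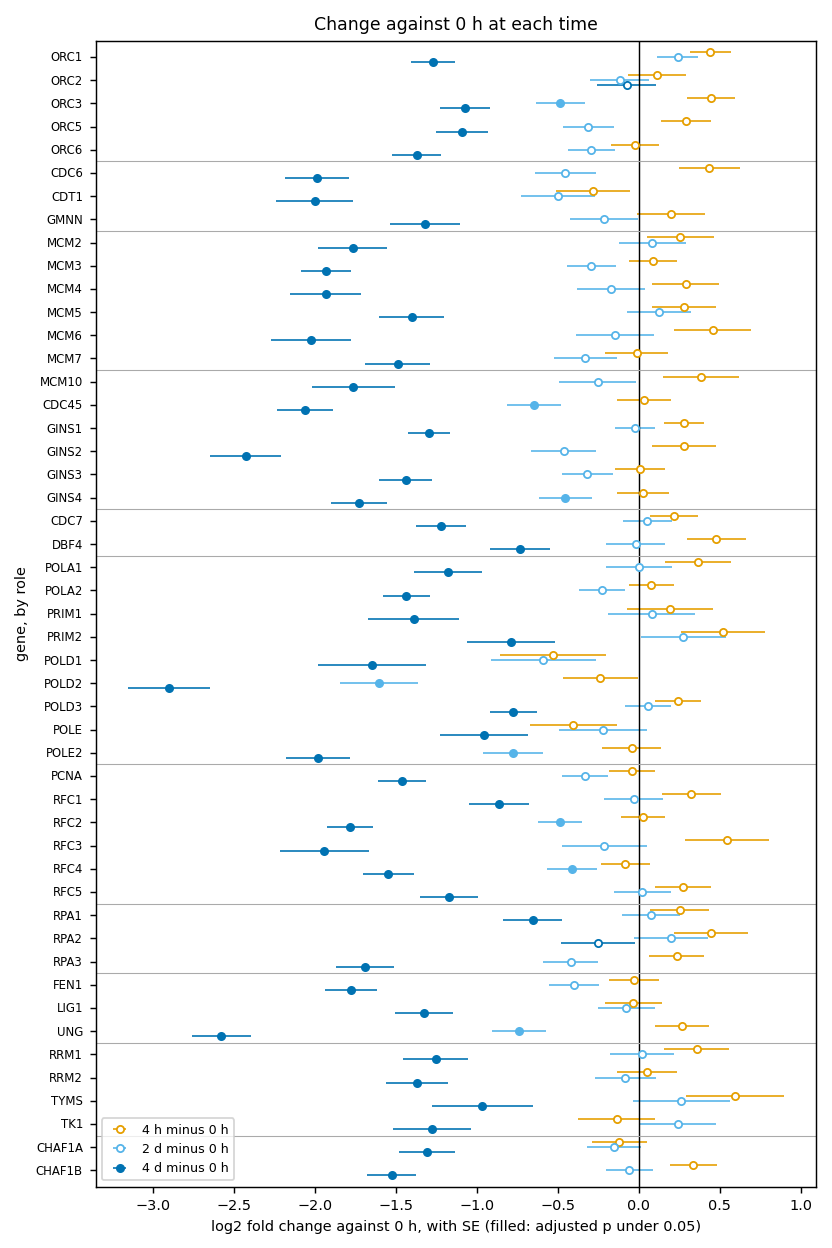
Points are log2 fold changes of the 49 replication genes against 0 h with SE, at 4 h (orange), 2 d (light blue) and 4 d (dark blue), filled where the adjusted p is under 0.05. Dark blue points lie left of 0 in all rows and are open for ORC2 and RPA2, 8 light blue points are filled, and no orange point is.

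Set against 4 h, 14 of 49 genes were lower at 2 d and none higher (background 18% called lower), with a median log2 fold change of -0.33 for the replication genes and 0.00 for all genes tested. They were ORC3, ORC5, CDC6, CDC45, GINS2, GINS4, DBF4, POLD2, POLE2, RFC2, RFC3, RPA3, UNG and CHAF1B. CDC6 had 34.1, 36.0 and 37.9 CPM at 2 d and 65.0, 65.5 and 69.6 CPM at 4 h, with no overlap (log2 -0.89 ± 0.19, adjusted p = 0.00276). The count was 9 without 2 d replicate 1 (background 12.7% called lower). All 2 d libraries lay below all 4 h libraries for 34 of the 49 genes (background 3456 of 12671 genes). They lay above for none (background 3269 genes). Against 0 h, all 2 d libraries lay below for 14 replication genes and above for 1 (background 3170 and 3289 genes). Without 4 h replicate 3, TK1 was called higher at 2 d (log2 0.74, adjusted p = 0.00882). Over all times, 47 of the 49 genes changed by the F-test (background 63.2%), the exceptions being ORC2 and RPA2.

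How much of the fall came late was tested as the log2 change between 2 d and 4 d minus that between 0 h and 2 d, a contrast added after the data were seen. It was negative and called for 19 genes and positive for none (background 3.99% called lower), with a median of -1.0 for the replication genes and 0.01 for all genes tested. MCM2 (-1.85 at 4 d against 2 d, 0.08 at 2 d against 0 h), MCM3, MCM4, MCM5 and MCM6 were among the 19, as were ORC1, GINS1, GINS2, CDC7, POLA2, POLD3, RFC5, FEN1, LIG1, UNG, RRM1, RRM2, TK1 and CHAF1B. POLD2 was not, with -1.30 at 4 d against 2 d and -1.61 at 2 d against 0 h. The 2 d libraries enter both terms of the contrast. The number called was 6 without 2 d replicate 1 and 6 without 2 d replicate 2. It was 9 without 2 d replicate 3 and 10 without 4 d replicate 3. In that order, these fits called 1.57%, 1.8%, 2.33% and 2.67% of all genes lower.

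E2F words and the size of the fall were set side by side. The 18 genes with a word had a median log2 fold change of -1.48 at 4 d against 0 h (range -2.43 to -0.96), and the 25 without one -1.32 (range -2.90 to -0.08). At 4 d against 2 d the medians were -1.24 with a word and -1.27 without. These are descriptions with no test, and 18 of 18 genes with a word and 24 of 25 without one were called lower at 4 d against 0 h.

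Other genes of the pathway, listed by function with earlier results of these data known, moved in both directions. Of 33 other fork and origin factors, 18 fell and 2 rose at 4 d against 0 h (background 29.7% lower and 28.1% higher), with a median of -0.56. DSCC1, of the alternative clamp loader for cohesion, had 4.61 ± 0.0796 CPM at 4 d and 20.3 ± 6.26 CPM at 0 h (SD, n = 3 each, log2 -2.13 ± 0.23, adjusted p = 4.31e-06). DTL, which targets CDT1 for destruction in S phase, had 12.7 ± 0.728 CPM at 4 d and 46.6 ± 12.8 CPM at 0 h (log2 -1.87 ± 0.20, adjusted p = 4.3e-06). Chosen after its value was seen, POLD4, the small subunit of polymerase delta, rose to 320.3 ± 143 CPM at 4 d, against 89.0 ± 44.9 CPM at 0 h (log2 1.85 ± 0.36, adjusted p = 0.000617), while the other 3 delta subunits fell. Among 12 further genes of nucleotide supply 7 fell and 3 rose. NME1, a nucleoside diphosphate kinase, fell (log2 -3.13 ± 0.27, adjusted p = 5.99e-07), and SAMHD1, which degrades deoxynucleotides, rose to 182 ± 87.0 CPM at 4 d, against 21.8 ± 13.0 CPM at 0 h (log2 3.07 ± 0.48, adjusted p = 0.00012). Replication-coupled chromatin factors fell in 11 of 13 cases, with TONSL (log2 -2.47 ± 0.40, adjusted p = 0.000155) and HELLS (log2 -1.69 ± 0.21, adjusted p = 1.66e-05) the most.

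Cell cycle genes around the machinery fell in part. Of 16 E2F, cyclin and CDK genes, 8 fell, 1 rose and 7 did not pass the test at 4 d against 0 h, with a median log2 fold change of -0.38 (background 29.7% lower and 28.1% higher). CDC25A, the phosphatase that activates CDK2, fell (log2 -2.32 ± 0.16, adjusted p = 6.4e-08), as did CCNE1, the cyclin E of S phase entry (log2 -2.20 ± 0.23, adjusted p = 3.88e-06). Of 8 proliferation and mitosis markers 6 fell, among them BIRC5 (log2 -1.28 ± 0.14, adjusted p = 4.81e-06) and CCNB1 (log2 -1.06 ± 0.21, adjusted p = 0.000858). MKI67, the Ki-67 antigen, named after its value was seen, had 266 ± 32.8 CPM at 0 h, 504 ± 69.9 CPM at 2 d and 297 ± 15.7 CPM at 4 d (SD, n = 3 each, log2 0.16 ± 0.16, adjusted p = 0.417 at 4 d against 0 h). Marker lists of other myeloid states moved at the same time. ATRA response and maturation markers summed to 5298 to 5499.7 CPM at 4 d and 851 to 1182 CPM at 0 h. Monocyte and macrophage markers summed to 398 to 481 CPM at 4 d and 72.3 to 93.1 CPM at 0 h, with MRC1 at 0 reads and CD163 at or near 0. CD68 made up most of that sum, at 329.6 ± 34.3 CPM at 4 d and 58.0 ± 13.3 CPM at 0 h (SD, n = 3 each). CD14 was lower, at 15.01 ± 1.58 CPM at 4 d and 22.5 ± 2.17 CPM at 0 h (log2 -0.58 ± 0.18, adjusted p = 0.0135). Lymphoid markers summed to 56 to 67.4 CPM at 4 d and 62.3 to 84.9 CPM at 0 h. Their part in the fall of the replication genes was not tested.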

How the data were processed

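The authors deposited 1 count of reads per gene for each of 12 bulk libraries, in whole numbers and without scaling. Per the submitters' processing notes, FastQC, Trim Galore 0.6.7, HISAT2 2.1.0, HTSeq 1.99.2 and the hg19 build were used. The annotation, the strand setting and the kit were not given in the sources used here. Without a stated strand, reads of overlapping antisense genes cannot be told apart. Left out were the classes of reads assigned to no gene (14.0% to 28.1% per library), to more than 1 gene (2.74% to 3.90%) or aligned at several places (4.50% to 5.70%).

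The analysis used edgeR 4.0.16 under R 4.3.3. Genes were filtered with filterByExpr, libraries scaled by TMM factors (0.865 to 1.10), and the quasi-likelihood model held 1 mean per time, with 8 residual degrees of freedom. A call needed an adjusted p under 0.05, with Benjamini-Hochberg adjustment over 12671 genes. Each SE is the absolute log2 fold change over the square root of F. A few symbols are listed under older names. Ratios of a pair of genes used log2 with a pseudocount of 0.5 reads. Replicates differed by more than counting error (chi-square per degree of freedom 3.47 to 98.0), and each library counts as 1 sample. GC content and lengths came from GRCh38 transcripts (GENCODE v29) matched by symbol for 23774 genes, and coordinates are given only for RefSeq promoters.

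The 49 genes, the other lists and the tests were chosen with earlier results of these data known. Values of every library at 4 times were printed for the gene of each role with the highest level and for the one with the largest change at 4 d against 0 h. Genes called at least 2-fold at 4 d against 2 d were printed with the libraries of those times, and of each other list the 2 called genes with the largest change. Alternatives were RLE factors, library totals, DESeq2 1.42.0, limma-voom (limma 3.58.1), other filters and thresholds, fits to 6 libraries, a replicate block, a GC and length offset, and libraries left out. The fits were tested on simulated data. A first pass bar for recovering 2-fold changes was missed and then lowered, so changes of that size or smaller can go uncalled. Raw reads, isoforms and protein were not analysed here.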

Additional observations from a re-analysis of the deposited data

How the results depend on the processing

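With 1 library left out, the replication genes called numbered 45 to 48 at 4 d against 0 h and 44 to 48 at 4 d against 2 d. Both counts stayed within 1.5 times the reported count in every alternative run, as did the F-test over all times. With 1 library left out, 25.7% to 30.2% of all genes were called lower at 4 d against 0 h. At 4 d against 2 d it was 8.62% to 16.4%. No called replication gene turned its direction. The earlier comparisons depended on the processing, and the causes were not tested. At 4 h against 0 h, in place of 0, 1 gene was called by DESeq2 and 1 with the offset for GC content and length. With that offset from the longest transcript, an alternative added after the data were seen, the count was 1. The count was 7 without the 3 libraries set apart by GC content (replicate 2 of 0 h, 3 of 4 h and 1 of 4 d). With 1 library left out it was 0 to 1. Of all genes, these fits called 10.6%, 9.82%, 10.8% and 24.9%, and 1.9% to 11.7% with 1 library left out. At 2 d against 0 h, in place of 8, there were 5 with library totals alone and 5 with no filter on low counts. There were 15 with the longest-transcript offset (3 higher and 12 lower) and 26 without the 3 libraries. Of all genes, these fits in that order called 32.5%, 20.4%, 44.2% and 52.8%, and called 16.1%, 10.4%, 22.5% and 27.3% lower. There were 4 replication genes at an adjusted p under 0.01 and 1 at 2-fold or more. With 1 library left out there were 3 to 13, and 12.7% to 20.5% of all genes were called lower. At 2 d against 4 h, in place of 14, there were 22 with the offset, 26 with the longest-transcript offset and 32 without the 3 libraries. Of all genes, these fits called 43.9%, 45% and 52.5%, and called 22.3%, 22.6% and 26.6% lower. There were 8 replication genes at an adjusted p under 0.01 and 2 at 2-fold or more. With 1 library left out there were 9 to 20, and 12.7% to 20.6% of all genes were called lower. The added contrast of the later against the earlier change gave, in place of 19, 36 with the offset and 41 with the longest-transcript offset. It gave 39 without the 3 libraries, 7 at an adjusted p under 0.01, and 6 to 21 with 1 library left out. Of all genes, the offsets called 7.91% and 8.71% lower and the fit without the 3 libraries 10.9%. With 1 library left out, 1.57% to 4.6% of all genes were called lower. The difference in the log2 ratio of CDT1 to GMNN ran between -1.03 and -0.24, where the SD was 0.315 at 4 d and 0.837 at 0 h.

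With replicate number as a block, which the design does not support as a pairing, the counts were 0 at 4 h, 6 at 2 d and 47 at 4 d against 0 h, 10 at 2 d against 4 h, 45 at 4 d against 2 d, 46 over all times and 8 for the added contrast. Of all genes, the fit with a block called 3.01% at 4 h, 28.5% at 2 d and 52.9% at 4 d against 0 h. It called 28.6% at 2 d against 4 h, 20% at 4 d against 2 d and 3.31% for the added contrast. Correlations of deviations from group means were over 0.1 for 6 of 18 same-number pairs, and 0 of 12 libraries correlated best with their own number. The lowest counts, 34 reads for a gene at 4 d, limit small differences there.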
